A study of Mus musculus with 7 samples.

Results

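The eicosanoid synthesis enzymes were 7 genes of the 28719 gene names in the count tables: Alox5, Alox5ap and Lta4h of the leukotriene arm, Ptgs1, Ptgs2 and Ptges of the prostaglandin arm, and Pla2g7, which belongs to neither. They were chosen by name, as genes that make leukotriene B4 and prostaglandin E2 or that break down platelet-activating factor. Earlier results of these data were known when they were chosen, so counts of members called are a description. In eicosanoid synthesis, arachidonic acid freed from membranes is turned by 5-lipoxygenase (Alox5), held at the membrane by its activating protein (Alox5ap), into leukotriene A4, which leukotriene A4 hydrolase (Lta4h) converts to leukotriene B4, an attractant for neutrophils. The cyclooxygenases, Ptgs1 (constitutive in many cells) and Ptgs2 (inducible), instead make prostaglandin H2, from which microsomal prostaglandin E synthase (Ptges) makes prostaglandin E2. Pla2g7, platelet-activating factor acetylhydrolase, inactivates a lipid mediator that acts beside the eicosanoids on the same cells.

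Transcripts were counted by single-cell RNA-seq of CD11b+ Ly6G+ neutrophils sorted from male C57BL/6J mice, in 7 libraries. In each of 2 runs, bone marrow, blood and spleen of untreated mice gave 1 library each, from 3 pooled mice aged 6 weeks in run 1 and 8 weeks in run 2, so age and run cannot be told apart. A further library held 5 conditions marked by hashtag oligomers, each from 3 pooled mice, aged 8 weeks when treatment began, so that the arthritic mice were older at harvest than the IL-1β mice: healthy blood, blood and joint lavage 7 days after the first injection of arthritogenic K/BxN serum (150 µl into the peritoneum on day 0, repeated on day 2), and lung or peritoneal lavage 3 hours after 25 ng of IL-1β was given into the nose or the peritoneum. Healthy cells were kept where S100a8 and S100a9 made up at least 3% of the transcripts, and inflammation cells where the authors' label began with GN. This left 1135 to 3672 cells in each healthy library and 292 to 2857 in each condition.

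The unit below is CPM, the transcripts (unique molecular identifiers, UMIs) of a gene per 1000000 UMIs of the kept cells of a library or condition. Those cells held 1360064 to 9104133 UMIs per healthy library and 942688 to 10293966 per condition. All 15 neutrophil markers were seen in each library and condition, at a summed 161385 to 503781 CPM. Blood 2 stood apart with 30345 CPM of erythroid transcripts, against 252 to 912 CPM in the other healthy libraries, and Spleen 2 held most B cell transcripts at 470 CPM. Between any pair of libraries, 0 to 36 cell barcodes were shared. The tables of run 1 list only genes with more than 10 UMIs, so a gene missing there has an upper limit and not a value.

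The 250 bases upstream of the 2 cyclooxygenase genes are shown because one of the pair, Ptgs2, is the member that stood highest above healthy blood in inflamed tissue, while the other did not. They are from RefSeq on GRCm38.p6 and read 5′ to 3′ on the gene's strand. Capitals mark motif matches.
Ptgs2, chr1:150099781-150100030 (+): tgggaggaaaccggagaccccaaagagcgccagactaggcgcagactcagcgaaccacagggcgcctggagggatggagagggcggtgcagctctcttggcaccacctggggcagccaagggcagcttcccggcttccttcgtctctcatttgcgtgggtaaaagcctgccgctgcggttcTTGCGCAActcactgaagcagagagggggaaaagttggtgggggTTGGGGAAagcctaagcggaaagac
Ptgs1, chr2:36230176-36230425 (+): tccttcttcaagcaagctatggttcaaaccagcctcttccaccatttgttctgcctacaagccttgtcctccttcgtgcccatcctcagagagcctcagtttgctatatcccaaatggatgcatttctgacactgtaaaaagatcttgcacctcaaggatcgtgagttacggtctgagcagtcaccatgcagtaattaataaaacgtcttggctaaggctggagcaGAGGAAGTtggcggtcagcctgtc

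In the Ptgs2 window the capitals are 2 matches to a C/EBP pattern (TTNNGNAA), at bases -69 to -62 and -25 to -18 from the gene start. In the Ptgs1 window they are 1 match to a PU.1 pattern (GAGGAAGT), at bases -24 to -17. The C/EBP pattern occurred in 36.9% and the PU.1 pattern in 2.44% of 27025 upstream windows of the same length. The other patterns, searched on both strands like these, were an NF-κB site (7.01% of windows), the cyclic AMP response element TGACGT (6.56%), the E-box CACGTG (6.05%) and the TATA box TATAAA (13%), and none matched in either window. Of the 7 members, 6 had a window. Ptges held 1 C/EBP match, and Alox5, Lta4h and Pla2g7 held none of the 6 patterns.

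All 7 members are protein-coding genes on separate loci of GRCm38. Alox5 lies at chr6:116410077-116461178 (-), Alox5ap at chr5:149264767-149288153 (+) and Lta4h at chr10:93453411-93484875 (+). Ptgs1 lies at chr2:36230426-36252272 (+), Ptgs2 at chr1:150100031-150108227 (+), Ptges at chr2:30889471-30929863 (-) and Pla2g7 at chr17:43568098-43612201 (+). The libraries are of the 3′-end type, in which a transcript gives a count of about the same size whatever its length.

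The first comparison asks how the enzymes differ between bone marrow, where neutrophils form, and the blood and spleen of healthy mice. Blood neutrophils held more Pla2g7 and Ptgs2 and less Lta4h and Ptgs1 than bone marrow neutrophils, while Alox5 and Alox5ap did not pass the test. In the leukotriene arm the last enzyme was the member that fell. Of the 6 members tested, 4 passed at a false discovery rate of 0.05, 2 higher and 2 lower in blood, against 21.7% of the 7809 genes tested (11.7% higher and 9.94% lower). Ptgs2 is 1 of the 4, but it passed the filter on low counts only through blood and spleen, where it is high, so its call is a description and the count including it supports nothing. The test was edgeR's quasi-likelihood test over the 6 healthy libraries with run as a block and Benjamini-Hochberg adjustment. DESeq2 called 3 of the 6, with Ptgs1 lost at an adjusted p of 0.0792. In the fits below that leave out a library, its tissue has 1 library left, which is assumed to vary like the other tissues, and those without Blood 1 or Blood 2 called 57 and 0 genes in blood against bone marrow, so a call lost there is no sign of a smaller difference.

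Alox5ap was the most abundant member in all 6 libraries. It measured 1589 and 1639 CPM in bone marrow (run 1 and run 2), 2377 and 2526 CPM in blood, and 1988 and 2275 CPM in spleen. Both bone marrow libraries lay below all libraries of the other tissues, and blood was 1.5-fold and 1.54-fold above bone marrow within the runs. In the fit, which scales libraries by TMM factors and not by their totals, the log2 fold change was 0.32 (SE 0.24, adjusted p = 0.376). Thinned to 500 UMIs a cell, 57.5% and 59.2% of bone marrow cells and 70.2% and 71.4% of blood cells held an Alox5ap UMI. The shares of all cells ran the other way, at 98.3% and 96.9% against 85.9% and 87.5%, with median depths of 2698.5 and 2133.5 UMIs in bone marrow and 809.5 and 826 UMIs in blood.

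Alox5 measured 107 and 112 CPM in bone marrow, 124 and 97.7 CPM in blood, and 122 and 88.9 CPM in spleen. The tissues overlapped, and the mean of 110 ± 3.07 CPM in bone marrow (SD, n = 2) sat inside the spread of 111 ± 18.3 CPM in blood and 105 ± 23.2 CPM in spleen. The log2 fold change of blood against bone marrow was -0.30 (SE 0.27, adjusted p = 0.467). Without cells that carry at least 2 UMIs of another cell type's markers it was -0.66 (adjusted p = 0.0410), a setting that kept 284 of the 1271 Bone marrow 1 cells and 1124 of the 4653 Blood 2 cells.

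Lta4h fell from bone marrow to blood. It measured 190 and 132 CPM in bone marrow, 58.8 and 17.2 CPM in blood, and 193 and 39.9 CPM in spleen. Blood lay below bone marrow in both runs, by 3.23-fold in run 1 and 7.66-fold in run 2, and the groups did not overlap. The spleen libraries split, with Spleen 1 at the bone marrow level and Spleen 2 inside the blood range. The log2 fold change of blood against bone marrow was -2.70 (SE 0.51, adjusted p = 0.0131). The call was lost without Blood 1 (-2.74, adjusted p = 0.164), without Blood 2 (-2.64, adjusted p = 0.148) and without the block (-2.41, adjusted p = 0.193). It held, at other sizes, without Bone marrow 1 (-3.53) and without Bone marrow 2 (-1.67). The 11 monocyte or macrophage markers moved with Lta4h. They summed to 1391 and 1020 CPM in bone marrow (11 seen in both libraries) and 640 and 269 CPM in blood (8 seen in each, with C1qa and C1qb at 0). Without cells carrying other types' markers the log2 fold change was -2.33 (adjusted p = 0.0019). That setting also selects on depth, here and for the other members. Its bone marrow cells had medians of 1692.5 and 1529 UMIs, against 2698.5 and 2133.5 UMIs among all cells kept. It does not single out transcripts from monocytes, whose share was not tested. Spleen did not differ from bone marrow past the threshold (-0.98, adjusted p = 0.363), but was called without cells carrying other types' markers (-1.54, adjusted p = 0.0132) and in the fits, with 1 library left in a tissue, without Bone marrow 1 (-1.91) or Spleen 1 (-1.94).

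Ptgs1 was a low transcript, at 19.3 and 20.1 CPM in bone marrow, 9.56 and 6.03 CPM in blood, and 17.5 and 9.71 CPM in spleen. Blood again lay below bone marrow in both runs, 2.02-fold and 3.33-fold, and the log2 fold change was -1.71 (SE 0.39, adjusted p = 0.0235). The 6 platelet markers, of a cell type also known for Ptgs1, were higher where Ptgs1 was lower, at a summed 97.8 and 156 CPM in blood (5 and 6 seen) and 0 to 3.51 CPM in the other tissues. The call was lost without Blood 1 (-1.73, adjusted p = 0.191), Blood 2 (-1.66, adjusted p = 0.182) or Bone marrow 2 (-1.04, adjusted p = 0.159), without the block (-1.68, adjusted p = 0.113), with every deposited cell (-1.65, adjusted p = 0.428) and without cells carrying other types' markers (-1.26, adjusted p = 0.106). Spleen against bone marrow (-0.71, adjusted p = 0.373) was called only with 1 library left in an arm, without Bone marrow 1 (-1.33, adjusted p = 0.0356) or Spleen 1 (-1.39, adjusted p = 0.0332).

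Ptgs2 was rare in healthy neutrophils. In run 2 it measured 1.65 CPM in bone marrow, 16.7 CPM in blood and 11.8 CPM in spleen. In run 1 it was listed in blood alone, at 8.09 CPM, with limits of 2.35 CPM in bone marrow and 3.72 CPM in spleen. In Blood 2 the gene was 10.1-fold above Bone marrow 2 (95% interval 5.66 to 19.2, which covers counting error only, as do all intervals on counts here). The fit gave a log2 fold change of 4.01 (SE 1.17, adjusted p = 0.0496) with unlisted genes at 0, and 2.35 (adjusted p = 0.0195) with them at 10 UMIs. The call was lost without Blood 1 (3.06, adjusted p = 0.191) or Blood 2 (8.90, adjusted p = 0.167), without the block (3.38, adjusted p = 0.284), and without cells carrying other types' markers (2.43, adjusted p = 0.0593). It was also lost with an S100 share from 1% (adjusted p = 0.0568), with the mitochondrial and gene number filters (adjusted p = 0.0566) and with every deposited cell (adjusted p = 0.391). The value was 6.62 without Bone marrow 2. Spleen against bone marrow (2.15, adjusted p = 0.402) was called only without Spleen 1, with 1 spleen library left (2.69, adjusted p = 0.0282). A Ptgs2 UMI was held by 0.409% of cells in Bone marrow 2 (0.224% to 0.685%), 1.55% in Blood 2 (1.18% to 2.01%) and 0.945% in Spleen 2 (0.570% to 1.47%), at median depths of 2133.5, 826 and 775 UMIs. Among left-out cells, the share was 0.37% of 270 with B cell markers in Bone marrow 2 (0.00938% to 2.05%), 0.138% of 723 with erythroid markers in Blood 2 (0.0035% to 0.768%) and 0.208% of 1440 with B cell markers in Spleen 2 (0.043% to 0.608%), at medians of 1506, 2753 and 1435 UMIs. The neutrophil share lay above the interval of these left-out cells in Blood 2, the intervals overlapped slightly in Spleen 2, and in Bone marrow 2 the share could not be told from background. Of 25 left-out Blood 2 cells with monocyte or macrophage markers, 1 held a Ptgs2 UMI (4%, 0.101% to 20.4%).

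Ptges was near the limit of counting. It measured 3.06 and 2.86 CPM in bone marrow and 6.33 and 0.511 CPM in spleen, was at 0 in Blood 2, where 3 UMIs would be 0.862 CPM, and was unlisted in Blood 1, with a limit of 7.35 CPM. It failed the filter on low counts. In a fit without that filter no contrast passed, with adjusted p = 0.173 for blood against bone marrow (unadjusted p = 0.0320), 0.999 for spleen against bone marrow and 0.728 for spleen against blood (unadjusted p = 0.0489). The fitted folds rest on groups at or near 0 and are not given.

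Pla2g7 rose in both blood and spleen. It measured 63.3 and 68.9 CPM in bone marrow, 715 and 826 CPM in blood, and 252 and 693 CPM in spleen. All blood and spleen libraries lay above both bone marrow libraries, with blood 11.3-fold and 12.0-fold above bone marrow and spleen 3.97-fold and 10.1-fold. The log2 fold change against bone marrow was 3.25 in blood (SE 0.29, adjusted p = 0.00222) and 2.52 in spleen (adjusted p = 0.0143). The blood call was lost without Blood 1 (3.11, adjusted p = 0.0576) or Blood 2 (3.37, adjusted p = 0.0576), the spleen call without Blood 1 (2.48, adjusted p = 0.0920) or Blood 2 (2.48, adjusted p = 0.100) or the block (2.59, adjusted p = 0.283), and without cells carrying other types' markers the blood value was 1.81 (adjusted p = 0.000145). With each cell thinned to 500 UMIs, 5.06% and 4.82% of bone marrow cells, 32.9% and 33.0% of blood cells and 21.9% and 30.6% of spleen cells held a UMI. In all cells of Blood 2 the share was 49.4% at a median of 826 UMIs, against 8.44% of 723 left-out cells with erythroid markers at a median of 2753 UMIs.

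Pla2g7 was the 1 member of 6 that passed in spleen against bone marrow, where 2.75% of genes were called (2.24% higher, 0.512% lower). In spleen against blood, edgeR called none of the 6 members (2 at an unadjusted p under 0.05) and 0.0512% of genes, and DESeq2 called none (3 at an unadjusted p under 0.05). On the log2 scale Ptgs2 was at -1.86 (adjusted p = 0.559), Lta4h at 1.72 (adjusted p = 0.403), Ptgs1 at 1.00 (adjusted p = 0.483) and Pla2g7 at -0.74 (adjusted p = 0.465). The Lta4h difference was called in 3 fits with 1 library left in a tissue, those without Bone marrow 1 (1.62), Bone marrow 2 (1.62) or Spleen 2 (2.46).

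The other genes of the pathway were followed through a list of 61, covering arachidonate release, leukotriene partners, prostanoid synthases, breakdown, receptors and platelet-activating factor. That list was also chosen with earlier results known, so its counts are a description. In blood against bone marrow 34 were tested, and 4 rose and 6 fell, or 29.4% against the 21.7% of all genes, with a median log2 fold change of -0.41. Those that rose were the receptor for platelet-activating factor, Ptafr (log2 1.84, adjusted p = 0.00398), Lpcat2, an acyltransferase that makes that mediator (0.94), Ggt5, which cleaves leukotriene C4 (1.79), and Cyp4f18, which oxidises leukotriene B4 (1.2). Ptafr measured 65.7 and 73.2 CPM in bone marrow and 292 and 313 CPM in blood, and Cyp4f18 163 and 177 CPM against 482 and 471 CPM. The genes that fell were the leukotriene B4 receptor Ltb4r1 (-1.57), the prostacyclin receptor Ptgir (-2.03), the reductases Ptgr1 (-2.66) and Ptgr2 (-1.40), which break down leukotriene B4 and prostaglandins, Mgst2, which can make leukotriene C4 (-2.66), and Lpcat1 (-1.82). DESeq2 called 9 of the 34, losing Ptgir (adjusted p = 0.110), Ptgr2 (0.227) and Lpcat1 (0.0843) and gaining Fpr2 (-1.07, adjusted p = 0.0161) and Mgst1 (-1.01, adjusted p = 0.0203), both lower in blood. Ltb4r1 went from 333 and 294 CPM in bone marrow to 183 and 98.0 CPM in blood, so the enzyme that makes leukotriene B4 from leukotriene A4 and the receptor for it were both lower in blood. In spleen against bone marrow 1 of the 34 passed, Ptafr at 1.38, a share of 2.94% beside 2.75% of all genes. In spleen against blood none passed by edgeR (2 at an unadjusted p under 0.05) or by DESeq2 (4 at an unadjusted p under 0.05).

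Tissues differ in how mature their neutrophils are, so the members were compared inside each library between cells poor and rich in secondary granule transcripts, which neutrophils make early and then stop making. Cells were called granule-high where Camp, Ngp and Ltf made up at least 4% of UMIs and granule-low where they made up less than 1%. Granule-high cells were 54.1% and 35.3% of the cells in bone marrow, 9.88% and 0.654% in blood and 41.1% and 2.99% in spleen, and in Blood 2 this was 24 cells. In spleen the runs differed, with Spleen 1 nearer to bone marrow, as for Lta4h. The ranges also differed in depth, with a median of 3933 UMIs in the granule-high and 1681 UMIs in the granule-low cells of Bone marrow 1.

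**Figure D1:**
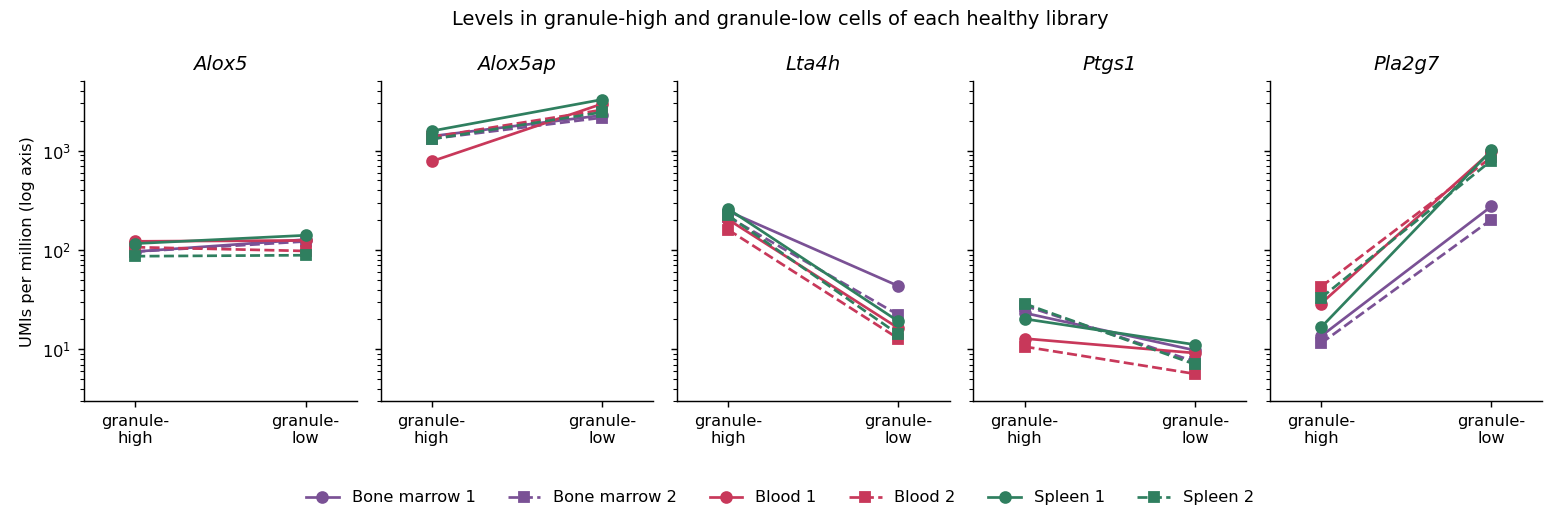
Level of the 5 members that passed the filter on low counts (CPM, log axis) in granule-high and granule-low cells, with a line joining the ranges of each of the 6 healthy libraries. Lta4h falls and Pla2g7 rises in all 6 libraries, and the Alox5 lines stay between 86.6 and 140 CPM.

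Granule-low cells held more Pla2g7 and Alox5ap and less Lta4h and Ptgs1 than granule-high cells of the same library. Of the 5 members that passed the filter on low counts, 4 passed the test (edgeR's quasi-likelihood test with library as a block), against 46.1% of the 5454 genes tested (25.0% higher, 21.1% lower). These 4 were called in each fit that left out a library and could test them.

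Lta4h measured 245, 203 and 259 CPM in the granule-high cells of Bone marrow 1, Blood 1 and Spleen 1, and 215, 160 and 223 CPM in those of run 2. In granule-low cells it measured 43.4, 16.4 and 19.1 CPM in run 1 and 22.2, 12.9 and 14.2 CPM in run 2. The ranges did not overlap, and the log2 fold change was -3.71 (SE 0.23, adjusted p = 8.95e-09). The granule-high cells of Blood 1, at 203 CPM, lay nearer to those of bone marrow than the whole library did at 58.8 CPM.

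Pla2g7 ran from 13.6, 28.9 and 16.6 CPM in the granule-high cells of bone marrow, blood and spleen in run 1 to 274, 981 and 1002 CPM in the granule-low cells. In run 2 it went from 11.5, 42.7 and 33.0 CPM to 202, 856 and 793 CPM. No library overlapped between ranges (log2 4.45, SE 0.20, adjusted p = 5.86e-10). Among granule-low cells, those of bone marrow still lay below those of blood and spleen in both runs.

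Alox5ap went from 1394, 778 and 1572 CPM in granule-high cells to 2259, 2945 and 3255 CPM in granule-low cells in run 1, and from 1312, 1365 and 1302 CPM to 2141, 2563 and 2429 CPM in run 2. It was higher in granule-low cells in 6 of 6 libraries (log2 0.69, SE 0.14, adjusted p = 0.000636). Ptgs1, at 10.7 to 28.9 CPM in granule-high and 5.68 to 11.2 CPM in granule-low cells, was lower in 6 of 6 libraries (log2 -1.66, SE 0.27, adjusted p = 0.000123). Alox5 did not pass (log2 -0.12, SE 0.17, adjusted p = 0.584). Its partners in the leukotriene arm thus moved in opposite directions between the ranges, Alox5ap up and Lta4h down, around a 5-lipoxygenase level without a detected difference. Ptgs2 failed the filter on low counts: in run 2 it had 2, 0 and 0 UMIs in the granule-high cells of bone marrow, blood and spleen and 12, 58 and 23 UMIs in the granule-low cells. The granule-high cells of Blood 2 and Spleen 2 held 93771 and 242619 UMIs in all, so that 0 UMIs says little about the level there. A fit without the filter, which called 3337 of 13607 genes, called Ptgs2 (adjusted p = 0.000104) and not Ptges (adjusted p = 0.0503), but the fitted folds rest on groups at or near 0 and are not given.

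Limited to granule-low cells, blood still held less Lta4h (log2 -1.41, adjusted p = 0.0118) and more Pla2g7 (1.60, adjusted p = 0.000816) than bone marrow, where 12.3% of genes were called. The Pla2g7 value in all cells was 3.25, and the gap between these was not tested. The calls of Ptgs1 (-0.65, adjusted p = 0.509) and Ptgs2 (1.91, adjusted p = 0.128) were lost. Alox5 was at -0.57 (adjusted p = 0.125) and Alox5ap at -0.05 (adjusted p = 0.920). In spleen granule-low cells Lta4h was also below bone marrow (-1.26, adjusted p = 0.0316) and Pla2g7 above it (1.55, adjusted p = 0.00123), with 10.7% of genes called.

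Of the 61 pathway genes, 23 were tested between the ranges, and 5 were higher and 9 lower in granule-low cells (60.9%, median log2 -0.13), beside 46.1% of all genes (25.0% higher, 21.1% lower). Higher were Cyp4f18 (2.72), Ggt5 (2.03), Ptafr (1.69), Lpcat2 (1.23) and the prostaglandin E2 receptor Ptger2 (1.57). Lower were Ptgr1 (-3.51), Ptgir (-2.65), Lpcat1 (-2.62), Mgst2 (-2.61), Ltb4r1 (-2.02), the synthase Ptges2 (-1.46), Ptgr2 (-1.25), the lipoxin receptor Fpr2 (-0.67) and Mgst1 (-0.58).

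The second comparison asks how the enzymes differ when neutrophils have entered inflamed joint, lung or peritoneum. Ptgs2 was 10.3 to 28.5 times its healthy blood level at these sites and 1.24 times that level (95% interval 0.784 to 2.01) in arthritic blood. The leukotriene arm and Pla2g7 were at or below their healthy blood levels in each condition per UMI counted. With TMM factors, a scaling that weighs the bulk of the genes in place of the total, 5 of these directions flipped: Alox5 (log2 0.34), Alox5ap (0.31) and Pla2g7 (0.16) in arthritic blood, Alox5ap in lung (0.13) and Alox5 in joint (0.01). Over the settings tried, the highest ratio of Lta4h to healthy blood was 1.01 in arthritic blood and 0.990 in lung. Each condition was 1 pool in 1 library, so no difference between conditions could be tested, and the comparisons share the same healthy blood cells. A gene counted as past the fold where levels differed at least 2-fold and averaged at least 10 CPM.

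**Figure D2:**
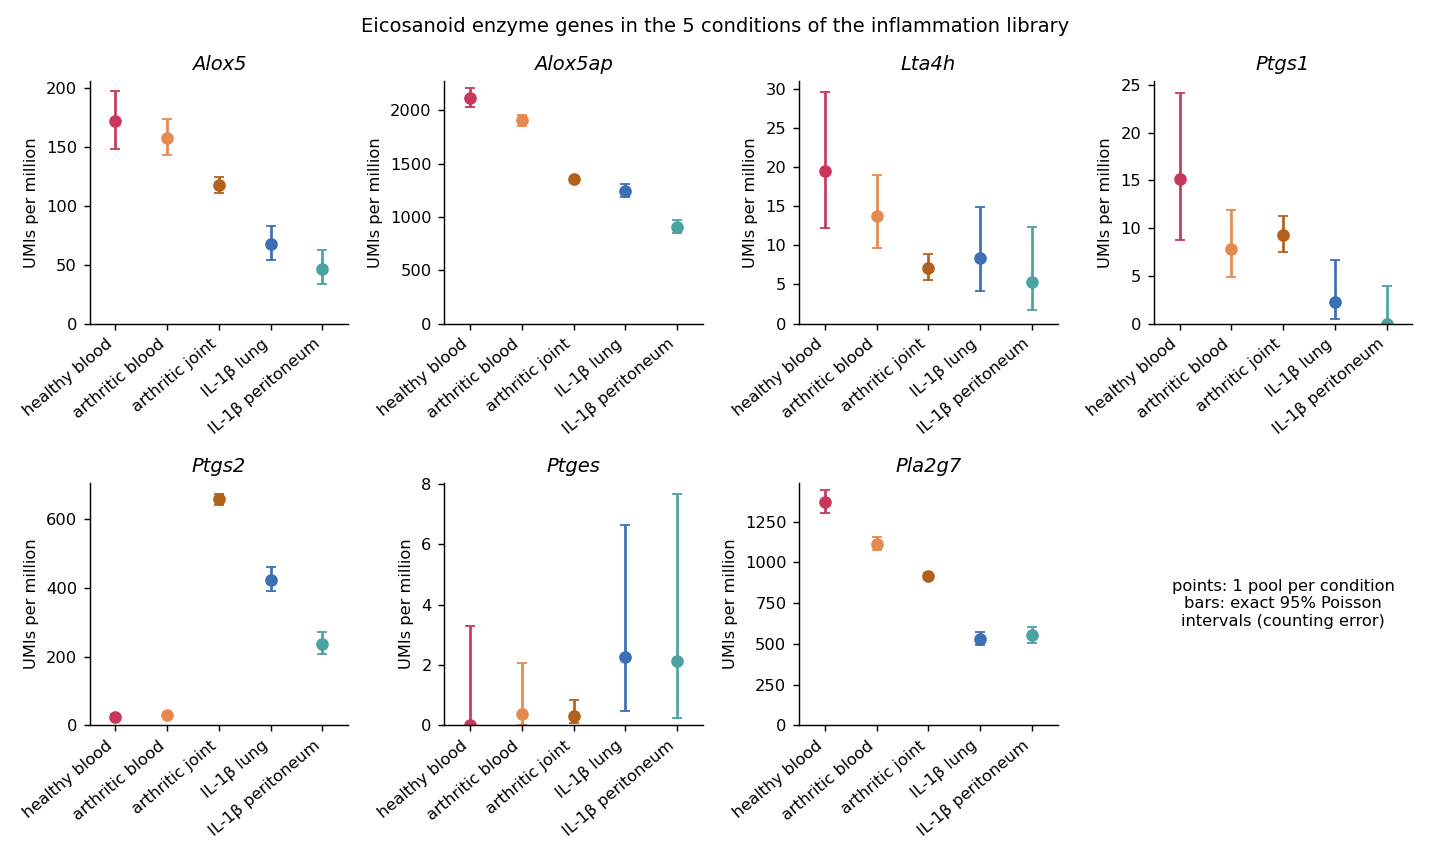
Level of each member (CPM) in the 5 conditions of the inflammation library, with 95% Poisson intervals. Ptgs2 stands at 658, 425 and 238 CPM in joint, lung and peritoneum against 23.1 and 28.6 CPM in healthy and arthritic blood.

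Scaling matters for these ratios. The median gene lay below healthy blood by a log2 of -0.40 in arthritic blood, -0.48 in joint, -0.97 in lung and -1.03 in peritoneum, so ratios are also given relative to that median. Genes past the fold were 33.1% in joint (9.19% higher, 23.9% lower), 59.7% in lung (10.8% and 48.9%), 61.5% in peritoneum (10.5% and 50.9%) and 9.71% in arthritic blood (0.668% and 9.04%). With TMM factors the balance of higher to lower genes turned at each: 911 to 330 in place of 518 to 1349 in joint, 1197 to 1019 in place of 588 to 2649 in lung, 1162 to 1007 in place of 563 to 2721 in peritoneum and 145 to 82 in place of 37 to 501 in arthritic blood.

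Members past the fold were 0 of 6 in arthritic blood, 2 of 6 in joint, 4 of 5 in lung and 5 of 5 in peritoneum. In each of the 3 inflamed sites exactly 1 of these, Ptgs2, was higher. With TMM factors Ptgs2 was the 1 member past the fold at each site. Lta4h, counted at each site, reached the required mean level only through healthy blood, so its part in these counts is a description. It stood at 19.6 CPM there, against 7.09, 8.33 and 5.30 CPM in joint, lung and peritoneum. As a mean over cells, Ptgs1 took the place of Lta4h in lung. Without cells carrying other types' markers, Ptgs1 was also past the fold, and lower, in arthritic blood, joint and lung.

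Ptgs2 measured 23.1 CPM in healthy blood, 28.6 CPM in arthritic blood, 658 CPM in arthritic joint, 425 CPM in IL-1β lung and 238 CPM in IL-1β peritoneum. The levels of the 3 sites had intervals apart from each other and from both bloods, while the bloods overlapped. The joint was 28.5-fold above healthy blood (95% interval 19.4 to 43.6), the lung 18.4-fold (12.4 to 28.4) and the peritoneum 10.3-fold (6.83 to 16.1). Relative to the median gene these ratios were 39.6, 36.0 and 21.0. Over the other settings tried, including TMM factors and leaving out the cell with the most Ptgs2 UMIs, they ranged from 24.6 to 41.9 in joint, 16.4 to 34.3 in lung and 9.74 to 19.3 in peritoneum. Among all genes tested, Ptgs2 was at percentile 99.6 of the ratios in joint, 98.9 in lung and 98.0 in peritoneum. Within the arthritic mice the joint was 23.0-fold above the blood (18.4 to 29.2), where 20.2% of genes were past the fold (12.4% higher, 7.73% lower). Lung was 1.79-fold above peritoneum (1.53 to 2.1), where 17.9% were (9.06% higher, 8.8% lower).

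Ptgs2 transcripts were unevenly spread over cells. A Ptgs2 UMI was found in 4.72% of cells in healthy blood, 7.49% in arthritic blood, 50.3% in joint, 27.6% in lung and 25.7% in peritoneum. With cells thinned to 1000 UMIs the shares were 3.39%, 3.12%, 30.2%, 16.1% and 14.7%, leaving out 155 of 509, 140 of 814, 123 of 2857, 94 of 380 and 61 of 292 cells. Median depths were 2527 UMIs in healthy blood and 3475.5 to 3681 UMIs in the others. The conditions were 1 library, so they shared its free RNA, and the share in healthy blood was measured with it.

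In the joint, 49.7% of cells held no Ptgs2 UMI, 16.1% held 1, 18.2% held 2 to 4 and 9.21% held 5 to 9. The remaining 194 cells, or 6.79%, held 10 or more and together carried 46.4% of the Ptgs2 UMIs. In lung 15 cells (3.95%) with 10 or more carried 53.8%, and in peritoneum 4 cells (1.37%) carried 29.5%. No cell of either blood held 5 or more.

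**Figure D3:**
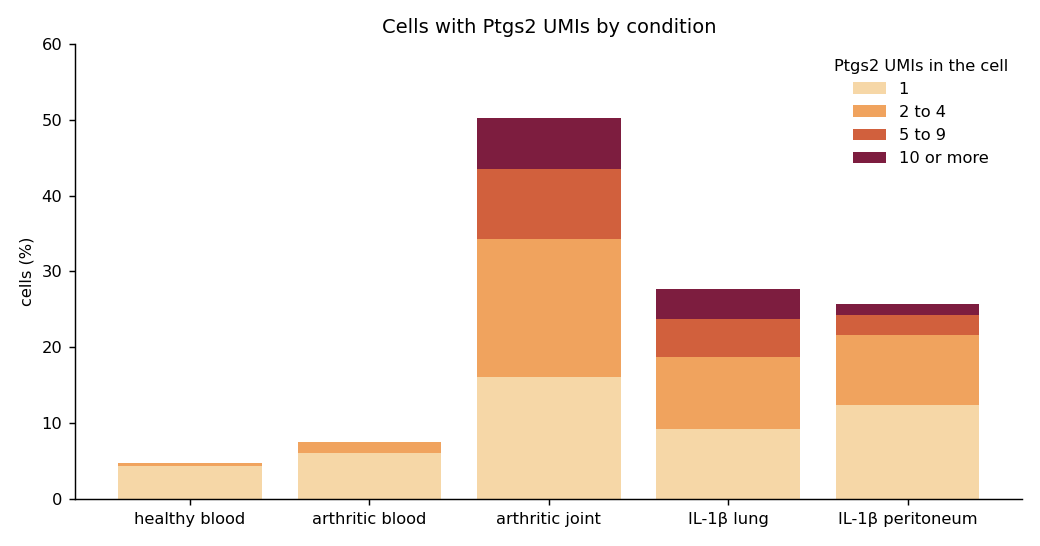
Percent of cells with 1, 2 to 4, 5 to 9 and 10 or more Ptgs2 UMIs in each condition of the inflammation library, stacked. Cells with a UMI make up 4.72% in healthy blood and 50.3% in joint, and cells with 10 or more appear in joint, lung and peritoneum alone.

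Ptgs1 had no rise of the size of that of Ptgs2, and Ptges had too few UMIs to compare. Ptgs1 measured 15.1 CPM in healthy blood, 7.80 CPM in arthritic blood, 9.23 CPM in joint and 2.27 CPM in lung, from 17, 21, 95 and 3 UMIs. In peritoneum it had 0 UMIs, with an upper 95% limit of 3.91 CPM. The joint was at 0.611 of healthy blood (0.362 to 1.09), and the lung was 6.66-fold lower (1.92 to 35.4). Relative to the median gene these were 0.849 and 0.294 of healthy blood. Ptges had 0 to 3 UMIs in each condition, at most 2.27 CPM, so the data give no ratio for the enzyme that follows Ptgs2 in prostaglandin E2 synthesis. At all 3 sites the prostaglandin arm was thus almost entirely Ptgs2, which made up 98.6%, 98.9% and 99.1% of its UMIs in joint, lung and peritoneum, against 60.5% in healthy and 77.8% in arthritic blood.

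In the leukotriene arm, Alox5ap measured 2121 CPM in healthy blood, 1909 CPM in arthritic blood, 1356 CPM in joint, 1245 CPM in lung and 907 CPM in peritoneum. It was 2.34-fold lower than healthy blood in peritoneum (2.16 to 2.53) and at 0.639 and 0.587 of it in joint and lung. Relative to the median gene, these 3 ratios were 0.872, 0.889 and 1.15, and with TMM factors the direction flipped in lung (log2 0.13) and arthritic blood (0.31). Alox5 measured 172, 157, 118, 67.4 and 46.7 CPM in the same order. It was 2.55-fold below healthy blood in lung (1.97 to 3.31) and 3.68-fold in peritoneum (2.64 to 5.22), or 0.769 and 0.555 relative to the median gene.

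Lta4h was low in all conditions, at 19.6 CPM in healthy blood, 13.7 CPM in arthritic blood, 7.09 CPM in joint, 8.33 CPM in lung and 5.30 CPM in peritoneum. The joint, with 73 UMIs, was 2.76-fold below healthy blood (1.63 to 4.49; 0.504 relative to the median gene). Lung and peritoneum rested on 11 and 5 UMIs. Nearly all cells here were granule-low, 99.7% in lung and 100% in the other conditions.

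Pla2g7 measured 1372 CPM in healthy blood, 1116 CPM in arthritic blood, 918 CPM in joint, 532 CPM in lung and 552 CPM in peritoneum. Lung was 2.58-fold (2.36 to 2.82) and peritoneum 2.49-fold (2.25 to 2.75) below healthy blood, or 0.759 and 0.820 relative to the median gene. Joint was at 0.669 of healthy blood, or 0.931 relative to the median gene, and arthritic blood at 0.813, a direction that flipped with TMM factors (log2 0.16). The 11 monocyte or macrophage markers summed to 283 CPM in healthy blood (7 seen) and 301, 296 and 389 CPM in joint, lung and peritoneum (11, 7 and 8 seen), and the mast cell markers were at 0 in all conditions but peritoneum (2.12 CPM).

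The ratio of the arms, all leukotriene arm UMIs over all prostaglandin arm UMIs, was taken for each library and condition. Its values were 84.3 and 76.5 in bone marrow, 145 and 116 in blood and 96.7 and 109 in spleen. With unlisted genes at 10 UMIs, the run 1 ratios were 76.3, 102 and 83.6. As a mean over cells, which weighs each cell alike, the ratio was 156 in Spleen 1, 127 in Bone marrow 1 and 108 in Bone marrow 2, so the tissues then overlapped. In the inflammation library it was 60.5 in healthy blood (44.8 to 83.8) and 56.6 in arthritic blood (46.4 to 69.7), whose intervals overlapped. It was 2.22 in joint (2.15 to 2.28), 3.08 in lung (2.80 to 3.39) and 4.0 in peritoneum (3.45 to 4.65). As a mean over cells it was 2.19 in joint, 2.15 in lung and 3.29 in peritoneum, so the gap between joint and lung was lost, and 47.0 and 37.2 in healthy and arthritic blood. Leukotriene arm transcripts still outnumbered the others at each site, at 1481, 1321 and 959 CPM against 668, 429 and 240 CPM. This rested on Alox5ap, the activating protein, which supplied 91.6%, 94.3% and 94.6% of the arm there. The enzymes Alox5 (118, 67.4 and 46.7 CPM) and Lta4h (7.09, 8.33 and 5.30 CPM) each lay below Ptgs2 (658, 425 and 238 CPM).

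**Figure D4:**
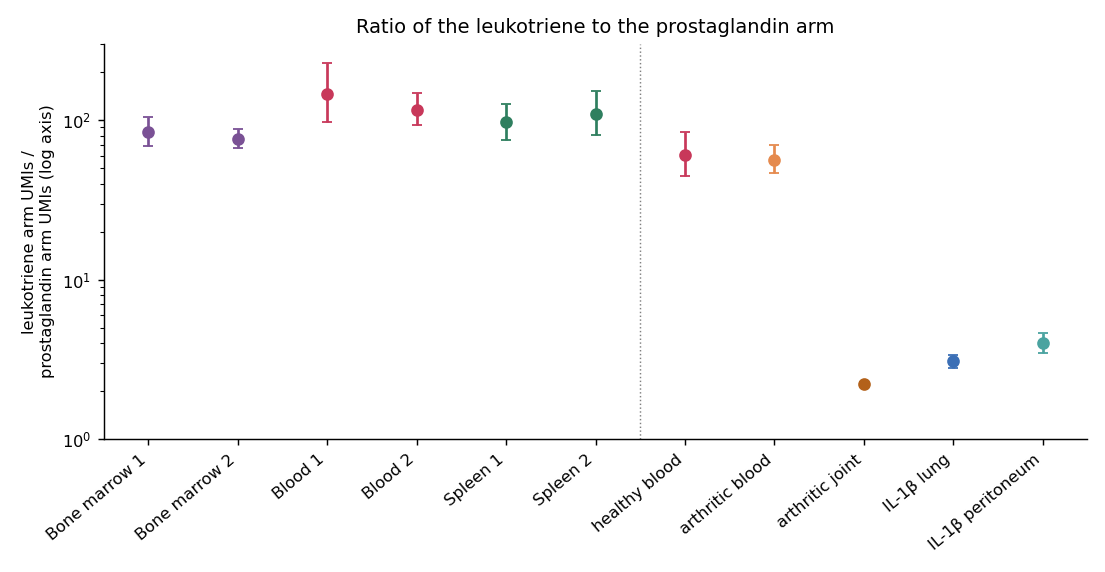
Leukotriene arm UMIs over prostaglandin arm UMIs (log axis) in each healthy library and each condition, with 95% intervals for counting error. The healthy libraries lie between 76.5 and 145, the bloods of the inflammation library at 60.5 and 56.6, and the inflamed sites between 2.22 and 4.0. Cells of the healthy and inflammation libraries were kept by different rules, so values are read within each set.

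Both parts of the ratio differed in size between sites and healthy blood: the prostaglandin arm was at 38.2 CPM in healthy blood and 668 CPM in joint, while the leukotriene arm was at 2312 and 1481 CPM. Alox5ap supplied 84.2% to 95.6% of the leukotriene arm over all libraries and conditions.

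Other pathway genes differed from healthy blood at the same sites. Past the fold were 2 of 19 tested in arthritic blood (10.5%), 4 of 16 in joint (25%), 7 of 17 in lung (41.2%) and 10 of 20 in peritoneum (50%), each below or near the share of all genes. Higher at a site were receptors and 1 synthase. Fpr2, the receptor for lipoxin A4 and formyl peptides, was at 228 CPM in healthy blood and 3.25-fold higher in lung (2.83 to 3.75) and 4.68-fold higher in peritoneum (4.08 to 5.39), or 6.37 and 9.55 times relative to the median gene. Ptafr was at 465 CPM in healthy blood and 818 CPM, 904 CPM and 1563 CPM in joint, lung and peritoneum, past the fold in the last (3.36-fold, 3.04 to 3.72) and, relative to the median gene, at 2.45, 3.80 and 6.86 times healthy blood. Ptges2, a synthase that can also make prostaglandin E2, was at 32.9 CPM in peritoneum against 9.78 CPM (3.36-fold, 1.65 to 7.42; 6.86 relative to the median gene). Mgst2 was 3.06-fold higher in arthritic blood (1.52 to 6.99).

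Of the genes lower at the sites, Tbxas1, the thromboxane synthase, was 4.24-fold lower in joint, 2.94-fold in lung and 2.99-fold in peritoneum, or 0.328, 0.667 and 0.682 of healthy blood relative to the median gene. The prostaglandin E2 receptor Ptger2 was 3.80-fold lower in joint and 3.17-fold in lung, or 0.366 and 0.617 relative to the median gene. Daglb, a lipase that yields an arachidonate-bearing lipid, was at 40.9 CPM in healthy blood and at 2.27 CPM and 4.24 CPM in lung and peritoneum, from 3 and 4 UMIs (0.109 and 0.212 relative to the median gene). Ptges3, the cytosolic partner of prostaglandin E synthesis, was 3.33-fold and 2.1-fold lower in lung and peritoneum, or 0.587 and 0.974 relative to the median gene. The others lower were Mgll and Ggt5 in joint, Lpcat3 and Pafah1b2 in lung and peritoneum, Ggt5 and Cotl1 in peritoneum and Lpcat1 in arthritic blood. Relative to the median gene, those still 2-fold lower were Mgll, Tbxas1 and Ptger2 in joint, Daglb in lung, Daglb and Lpcat3 in peritoneum and Lpcat1 in arthritic blood.

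The genes whose levels were most like those of the 2 main members were listed by Pearson's r over the 11 libraries and conditions, among 2045 genes with a mean of at least 50 CPM. These points share animals, runs and scaling, so r is a description. Alox5ap was most like Sgk1 (0.985), Slc35a5 (0.979), Ndufb9 (0.978), Hist1h1c (0.976) and Arrdc3 (0.975). Its r with Alox5, which it activates, was 0.788, against 0.746 with Pla2g7, -0.187 with Lta4h and -0.487 with Ptgs2. Ptgs2 was most like Basp1 (0.987), Gpr35 (0.984), Rab7 (0.976), Tiparp (0.975) and Tgm2 (0.972).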

How the data were processed

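Counts were the authors' deposited UMI counts per gene and cell, made with Cell Ranger 1.2.0, 2.1.0 and 3.0.2 on mm10. Cell cycle fraction values that the authors deposited were not used. The authors removed hashtag doublets and negatives, and no doublet caller was run here. The 7 members and the 61-gene list were chosen with earlier results of these data known. Named from the list were genes called in a healthy contrast or past the fold with at least 20 UMIs. Counts were summed per library, and the 7809 genes that passed edgeR's filter were tested with edgeR 4.0.16 (quasi-likelihood, TMM factors, run as block, false discovery rate 0.05) in R 4.3.3, with DESeq2 1.42.0 as an alternative. Each value is a pool of 3 mice, and n is 2 pools a tissue. The 3 tissues within each run shared their mice, and same-run libraries deviated together (r = 0.597, 0.631 and 0.550). In a simulation of blood against bone marrow (7444 genes), 36.5% of 2-fold and 93.6% of 4-fold changes were recovered, and in one of the granule ranges (5294 genes) 74.2% and 100%. Every simulated gene had the same spread, the median of the fitted ones, and no effect of run or library was simulated. The recovery in the real data can therefore differ. Intervals are exact 95% Poisson or binomial ones, and the floor is 3 UMIs. Gene positions are from GENCODE and upstream windows from RefSeq. Other settings are given in the closing section.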

Additional observations from a re-analysis of the deposited data

How the results depend on the processing

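Over all alternatives no result changed to a called effect in the opposite direction. Genes called in blood against bone marrow were 1693, and were 164 with no replicate block, 1079 without cells carrying other types' markers, 742 in granule-low cells and 0 with every deposited cell (edgeR, 1218 at an unadjusted p under 0.05), with 0 (without Blood 2, 2025 unadjusted) to 2626 when 1 library was left out (57 without Blood 1, 2626 without Spleen 1, 996 without Bone marrow 2). For spleen against bone marrow 215 were called, against 0 with no replicate block (663 unadjusted), 0 with every cell (382), 115 with mitochondrial and gene number filters, 898 without other types' markers and 647 in granule-low cells, and 0 (without Blood 1 or Blood 2) to 1250 (without Spleen 1) with a library left out. For spleen against blood 4 were called, against 28 by DESeq2, 18 without the filter on low counts, 0 with no replicate block (456 unadjusted), 19 with an S100 share from 10%, 0 with every cell (655), 8 in granule-low cells, 0 with unlisted genes at 10 UMIs (800), 11 over genes listed in all run 1 tables, and 0 to 245 with a library left out. With no replicate block Lta4h, Ptgs1 and Ptgs2 lost their blood calls (adjusted p 0.193, 0.113 and 0.284), Pla2g7 kept its own (0.0444) but lost its spleen call (0.283), and with every deposited cell all 4 lost theirs. The Ptgs2 call was also lost with an S100 share from 1% (0.0568) and with the mitochondrial and gene number filters (0.0566).

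With TMM factors, genes past the fold against healthy blood were 227 in arthritic blood, 1241 in joint, 2216 in lung and 2169 in peritoneum, in place of 538, 1867, 3237 and 3284. The log2 arm ratio moved past its interval with the mitochondrial and gene number filters in Bone marrow 1 (6.80) and Bone marrow 2 (6.50), and as a mean over cells in Bone marrow 1 (6.99), Bone marrow 2 (6.76), Spleen 1 (7.29), arthritic blood (5.22), lung (1.11) and peritoneum (1.72). The causes were not tested. The settings on shared barcodes, on genes unlisted in run 1, on markers of other types within the inflammation library and on the highest cell were chosen after seeing the data. Depth limits Ptges everywhere and Ptgs1 and Lta4h in lung and peritoneum, and with 1 pool a condition no difference in inflammation has an error over animals.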

Other observations

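Healthy cells left out by the S100 threshold gave values for the members in other cell types. In left-out cells with monocyte or macrophage markers, Alox5ap was at 1355 CPM in Bone marrow 1 (36 cells), 1217 CPM in Bone marrow 2 (58), 1661 CPM in Blood 1 (101), 1045 CPM in Blood 2 (25) and 800 CPM in Spleen 2 (55), against 1589, 1639, 2377, 2526 and 2275 CPM in the neutrophils kept. Alox5 was at 4.09 to 18.4 CPM in these cells, against 88.9 to 124 CPM. Alox5ap was at 109 CPM in 723 Blood 2 cells with erythroid markers and Alox5 at 6.61 CPM. In the same libraries Pla2g7 was at 45.0, 143, 206, 268 and 225 CPM in the left-out cells with monocyte or macrophage markers. The neutrophils kept held 63.3, 68.9, 715, 826 and 693 CPM, so they were lower only in Bone marrow 2. Pla2g7 was at 31.7 CPM in 1440 Spleen 2 cells with B cell markers. Lta4h was at 131, 80.0, 36.8, 26.8 and 35.1 CPM in those monocyte or macrophage cells, against 190, 132, 58.8, 17.2 and 39.9 CPM. With natural killer cell markers it was at 128 CPM in Blood 1 and 51.9 CPM in Spleen 2, above the neutrophils kept.

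Within the joint, cells with and without a Ptgs2 UMI were set side by side after each was thinned to 1000 UMIs, as a description within 1 pool. The 821 cells with Ptgs2 held 1493 CPM of Alox5ap (1410 to 1579) and the 1913 without held 1265 CPM (1215 to 1316). Pla2g7 was at 988 CPM (921 to 1058) and 917 CPM (874 to 961), and Alox5 at 133 CPM and 111 CPM. In lung Alox5ap ran the other way, at 866 CPM (613 to 1189) in 44 cells with Ptgs2 and 1236 CPM (1099 to 1384) in 242 without, with overlapping intervals, while Pla2g7 was at 684 CPM and 525 CPM and Alox5 at 137 CPM and 57.9 CPM, from 6 and 14 UMIs. In peritoneum Alox5ap was at 1145 CPM (818 to 1559) and 949 CPM (817 to 1096), with overlapping intervals, and the 35 cells with Ptgs2 held 229 CPM of Pla2g7 (98.8 to 451), from 8 UMIs, and the 196 without held 551 CPM (452 to 665).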
